A study of Mus musculus with 6 samples.

Results

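Axon guidance ligands and receptors were followed in mouse embryonic fibroblasts with and without Rap1. Rap1 is the product of Terf2ip, a member of the shelterin complex of telomeres that is held there by Terf2. The set was a list of 44 genes of the ephrin, Eph, semaphorin, plexin, neuropilin, Slit, Robo, netrin and Unc5 families. Its members were chosen by gene family, with earlier results of these data known. Through the RefSeq accessions in the array files, 40 of the 44 were matched to at least 1 probe, and each gene was read by its probe of highest mean signal. Efna3, Sema4c, Plxnb2 and Plxnd1 had no match and were not analysed here. Of the 40, 36 had signal well over background throughout at least 1 of the groups and entered the test, among 19647 features in all.

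Total RNA of 3 wild-type and 3 Rap1 knock-out samples was hybridised to 1-colour Agilent arrays. In the knockout allele, Cre removes the floxed exon 3 of Terf2ip. Cells of both groups were infected with the SV40 large T antigen and with Cre recombinase, and both were grown in DMEM with 2 micrograms per ml of puromycin, so what was measured holds for immortalised, Cre-exposed cells. The labels give no embryo age and do not say whether the wild-type cells carried floxed alleles, or whether arrays of a group came from separate embryos or cultures; p-values then measure only the spread between these samples, which may be technical. Levels are log2 signals relative to the 75th percentile of their own array, differences are knockout minus wild type on that scale, and errors of means are SD with n = 3.

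Guidance cues are secreted or membrane-bound proteins that attract or repel a moving cell process, and they were named for growing axons, although fibroblasts, endothelium and other migrating cells use the same proteins. Ephrins are membrane-bound ligands of the Eph receptor tyrosine kinases. Semaphorins signal through plexins, the secreted class 3 members mostly with neuropilins as co-receptors. Slits are secreted ligands of the Robo receptors, and netrins bind Dcc, Neo1 and the Unc5 receptors. Many of these receptors act on the actin cytoskeleton.

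Between 61.6% and 67.0% of 41174 probes per array were above background, and the number of arrays limits the precision. Terf2ip read -1.75, -1.65 and -1.81 in wild type and -7.91, -9.08 and -8.11 in knockout, where no array had it well above background (limma adjusted p = 0.00792). Where its probe lies relative to exon 3 was not determined here. Wild-type arrays 2 and 3 were near-alike: their log2 differences had an SD of 0.195, against 0.690 to 1.06 for every other pair of arrays. For the tested members the SD was 0.219 between these arrays and 1.26 to 1.83 for the other pairs. On spots printed more than once, arrays 2 and 3 differed by 0.133 (robust SD), and repeat spots within each by 0.0808 and 0.0747. Spots within an array leave out the variation between hybridisations, so these values do not tell whether the arrays held 2 RNA samples or 1 RNA hybridised more than once. The labels list them as separate samples and the fit takes them so; the n of 3, the SE and the p-values rest on that, and the smallest limma adjusted p of any member is 0.137 with both and 0.495 with them averaged as 1. Wild-type array 1 and knockout array 1 lay on slide 1 and the other 4 arrays on slide 2.

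The cells carried fibroblast transcripts: 11 of 12 fibroblast markers were above background on all 6 arrays. Markers that define several other cell types were not above background on any array, namely Pecam1, Cdh5, Tie1 and Emcn of endothelium, Ptprc and Adgre1 of macrophages, Myod1, Myog and Myf5 of skeletal muscle, Snap25 and Nefl of neurons, and Gfap and Erbb3 of glia. The summed level of 12 neuron markers ran from 3.08 to 5.29 in wild type and from 3.34 to 4.97 in knockout, with overlap and with Syn1 carrying most of the signal. Within that list Stmn2, a tubulin-binding protein of growth cones, stood apart: it read -4.75, -3.81 and -3.93 in wild type and 0.85, 0.26 and -0.81 in knockout, a difference of 4.26 (SE 0.48, limma adjusted p = 0.119). Of the other 7 tested neuron markers, 1 was above 0 and 6 below, all with overlap, and the part of Stmn2 in the members' differences was not tested. The sums also overlapped for glia, endothelium, macrophages and skeletal muscle. For 6 epithelial markers the sum was 1.06 to 1.64 in wild type and 2.02 to 3.70 in knockout, without overlap, and Krt18 made up most of it. Of 5 tested epithelial markers 2 were above 0, Krt18 at 1.53 and Epcam at 0.86, and 3 below, Krt8 at -1.74, Krt14 at -0.09 and Krt5 at -0.07; Krt18 alone was separated. For the 12 fibroblast markers the sum was 9.26 to 9.39 in wild type and 9.15, 9.16 and 8.36 on knockout arrays 1, 2 and 3. It was thus lower on every knockout array without overlap, though only slightly on knockout arrays 1 and 2. Bright genes such as Col1a2, S100a4, Vim and Col1a1 weigh most in it.

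No member passed the limma threshold of an adjusted p under 0.05 (0 of 36, where 0.0102% of all features passed). The Slit ligands Slit2 and Slit3, the semaphorins Sema3c and Sema5a and the netrin receptor Unc5b were lower on every knockout array than on any wild-type array, by at least 2-fold in the group means. The plexin Plxnb1 was higher in the same way. That makes 6 of 36 members, against 4.30% of all features, with 5 lower (2.63%) and 1 higher (1.67%). All 6 were above background on every array; among the 33 members of which that holds, they are 18.2%, where the same share of features was 3.15%. With wild-type arrays 2 and 3 averaged the count was 5, without Unc5b, against 4.13%. Among those 33 members the shares were 15.2% lower and 3.03% higher, where the features gave 1.87% and 1.28%. By group means alone, 9 of 36 members were at least 2-fold apart against 10.1% of features, 3 higher (3.89%) and 6 lower (6.26%), and of the 33 it was 18.2% against 7.21%. An unadjusted limma p under 0.05 was reached by 8 of 36 members against 10.3% of features, 4 higher (5.61%) and 4 lower (4.66%), and by 4 members against 3.51% with the near-alike arrays averaged. Of the 33 it was 21.2% against 9.09%. The members were chosen with earlier results of these data known, so their shares are not an unbiased comparison with all features.

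**Figure D1:**
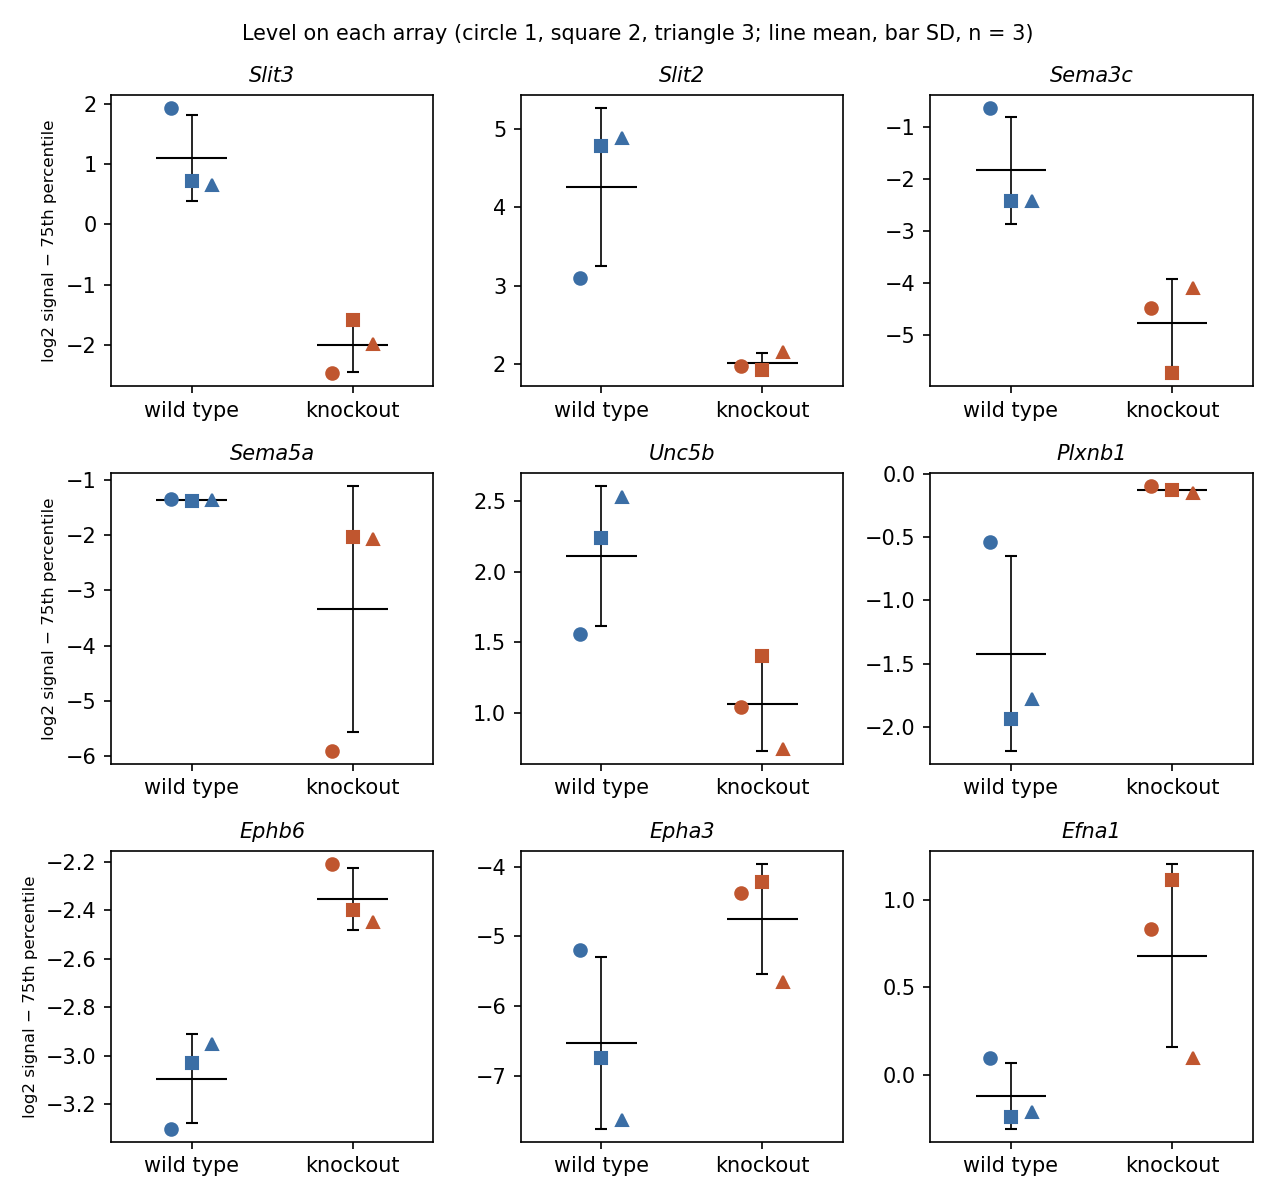
Level (log2 signal minus the array's 75th percentile) on each of 3 wild-type and 3 knockout arrays for 9 members, with the mean as a line and the SD as a bar; circles, squares and triangles are arrays 1, 2 and 3, and each panel has its own axis. Slit3, Slit2, Sema3c, Sema5a and Unc5b are lower and Plxnb1 and Ephb6 higher on every knockout array, while the groups of Epha3 and Efna1 overlap.

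Slit3, a secreted repellent that in the body is also made by mesenchymal cells, had the smallest p of the members, ranked 27 of 19647. It read 1.93, 0.73 and 0.66 in wild type and -2.46, -1.58 and -1.98 in knockout. The nearest arrays of the groups were 2.24 apart, more than the range within either group (1.27 and 0.88). The difference was -3.11 (SE 0.42, limma adjusted p = 0.137), an 8.64-fold lower mean, with -4.39 on slide 1 and -2.47 on slide 2. Counting wild-type arrays 2 and 3 as 1 gave -3.32 (limma adjusted p = 0.495), and on slide 2 alone, where those near-alike arrays are the only wild type, -2.47 (limma adjusted p = 0.0414).

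Slit2, its close relative, read 3.10, 4.79 and 4.89 in wild type and 1.97, 1.92 and 2.16 in knockout. The knockout arrays lay within 0.24 of each other, and wild-type array 1 stood between them and the near-alike arrays 2 and 3. The difference was -2.25 (SE 0.49, limma adjusted p = 0.325), a 4.74-fold lower mean. It was -1.14 on slide 1 and -2.80 on slide 2, -1.09 against wild-type array 1 only and -2.83 against arrays 2 and 3. In the fit without wild-type array 1 it passed the threshold at -2.83 (limma adjusted p = 0.0298), and on slide 2 alone at -2.80 (limma adjusted p = 0.0315), both resting on the near-alike arrays. A second probe of Slit2 read 1.35, 3.07 and 2.93 in wild type and 0.29, -0.20 and 0.46 in knockout, a difference of -2.27. Both probes thus placed every knockout array below every wild-type array.

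Both Slit genes hold a microRNA hairpin within their span in the RefSeq annotation of GRCm38.p6, Mir218-1 in Slit2 and Mir218-2 in Slit3. The mature sequences are shown because both host transcripts were lower on every knockout array; Robo1, a receptor of both ligands, is a known target of miR-218. Capitals mark the seed, bases 2 to 8.
mmu-miR-218-5p: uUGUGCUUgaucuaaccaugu
mmu-miR-218-1-3p: aAACAUGGuuccgucaagcacc
mmu-miR-218-2-3p: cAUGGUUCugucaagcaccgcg
The 5p arm is the same from both hairpins, while the 3p arms differ in their seeds. The arrays read the host transcripts, and the level of the microRNA was not analysed here.

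The Robo receptors of the Slits were at low or overlapping levels. Robo1 read -0.84, 0.03 and -0.14 in wild type and -0.11, -0.75 and 0.70 in knockout, with overlap and a difference of 0.26 (SE 0.43). Robo2 did not enter the test: 0 wild-type arrays and 2 knockout arrays had it above background, and it read -8.02, -7.86 and -7.96 in wild type and -8.02, -6.31 and -6.26 in knockout. Slit1, the remaining Slit ligand and no member of the set, was above background on all arrays and differed by 0.02 (SE 0.27). Robo4, the Robo of endothelium, was not above background on any array.

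Several fibroblast markers were lower on the same arrays as the Slits. Prrx1, a mesenchymal transcription factor, read 1.57, 1.95 and 1.96 in wild type and 1.12, 0.66 and 1.00 in knockout. Pdgfra, a receptor of fibroblasts, read 2.92, 2.43 and 2.40 against -1.48, 1.99 and 0.12, and the surface protein Thy1 3.79, 2.88 and 2.94 against -2.22, 1.92 and 1.99. In all, 9 of the 12 markers had a difference below 0 and 4 were separated downward (5.88% of all features were). Pdgfrb differed by 0.60, Vim by 0.21 and Col1a1 by 0.16. Dcn and Lum overlapped between the groups and were far lowest on knockout array 1. Dcn read 5.79, 3.54 and 3.13 in wild type and -5.47, 4.97 and 2.19 in knockout. Lum read 2.66, -3.61 and -4.05 against -9.08, -0.59 and -1.90. The epithelial keratin Krt18 read 1.58, 0.80 and 1.03 in wild type and 2.41, 3.67 and 1.91 in knockout, while Krt8, the keratin it pairs with, read -4.40, -2.77 and -2.61 against -6.14, -3.74 and -5.12. The part of these markers in the differences of the separated members was not tested, and in such samples fewer cells of a type and less RNA per cell cannot be told apart.

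**Figure D2:**
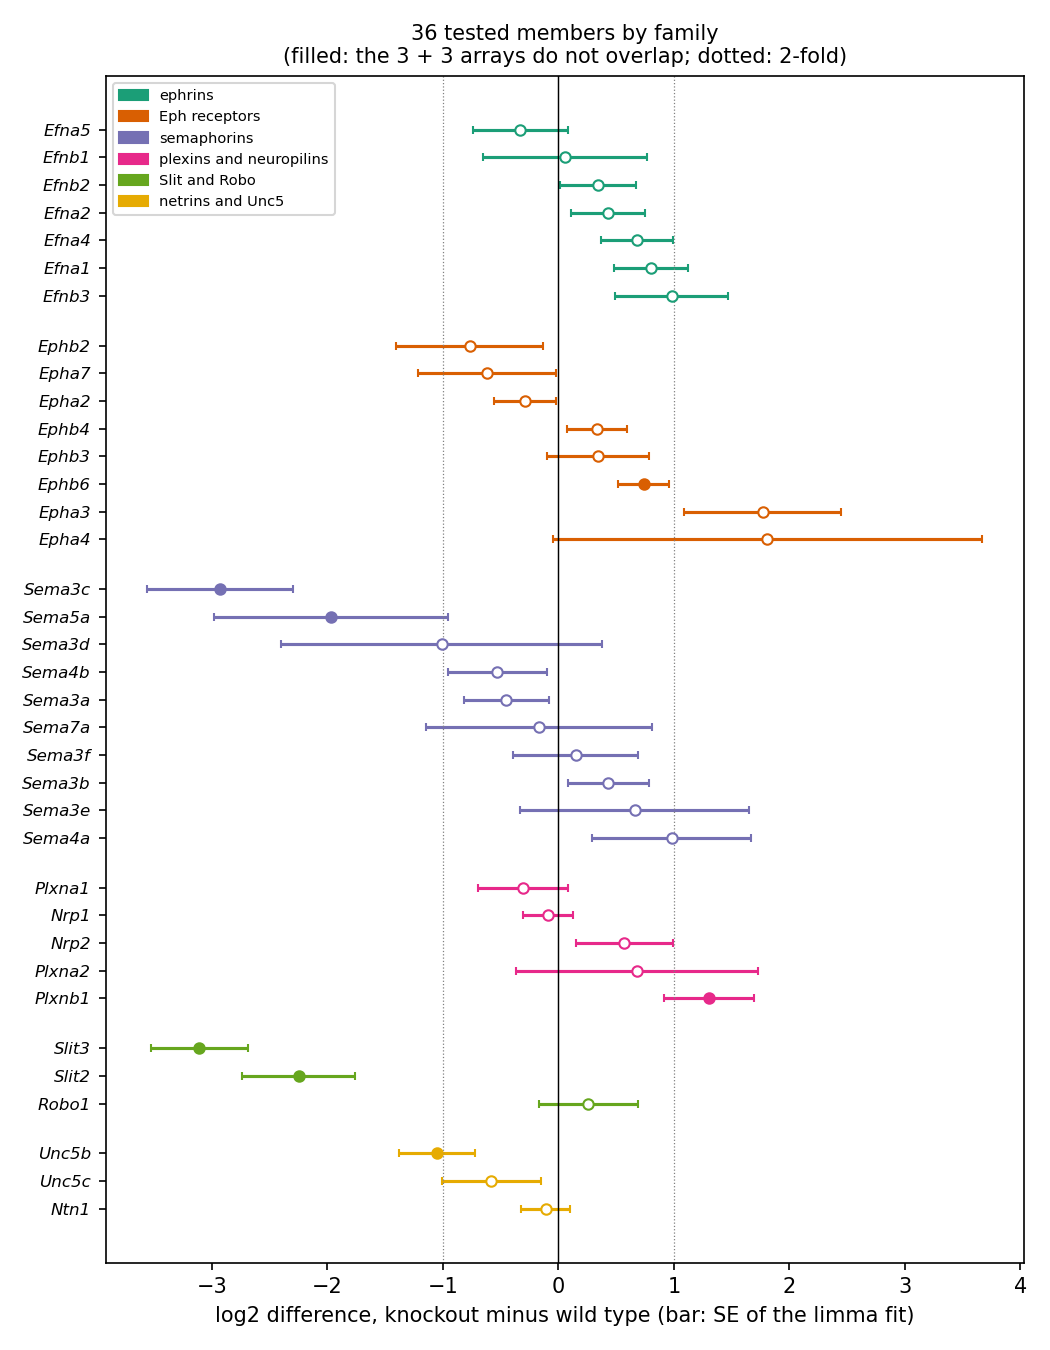
Log2 difference (knockout minus wild type) of the 36 tested members, grouped by family, with the SE of the limma fit as a bar; filled points are members whose 3 wild-type and 3 knockout arrays do not overlap, and dotted lines mark 2-fold. Slit3 at -3.11 and Sema3c at -2.93 lie farthest below 0, and Epha4 at 1.81, with the widest bar, lies farthest above.

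Among 10 tested semaphorins, 6 had a difference below 0 and 4 above, and 2 were separated, 20.0% where 17.2% of all features were. Sema3c, a secreted ligand of neuropilin and plexin complexes known from the cardiac outflow tract, read -0.64, -2.42 and -2.43 in wild type and -4.47, -5.72 and -4.10 in knockout. The groups were 1.67 apart at their nearest arrays. Its difference was -2.93 (SE 0.63, limma adjusted p = 0.317), with -3.83 on slide 1 and -2.48 on slide 2. After normexp correction with quantile normalisation it was -1.75, and it was below 0 under every alternative run. As the groups did not overlap, leaving out or averaging arrays could not change that sign.

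Sema5a, a membrane-bound semaphorin with thrombospondin repeats, rested on 1 array. It read -1.35, -1.38 and -1.36 in wild type and -5.90, -2.03 and -2.08 in knockout. Knockout array 1 lay far below the others, and the remaining knockout arrays were also below all wild-type arrays. The difference of -1.97 (SE 1.01, limma adjusted p = 0.506) was -4.55 on slide 1 and -0.69 on slide 2, which leaves out knockout array 1 and is under 2-fold. A second probe read -6.18, -5.66 and -5.92 in wild type and -9.07, -6.32 and -6.39 in knockout, with the same array lowest.

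In the RefSeq gene order of chromosome 5, Sema3d, Sema3a, Sema3e and Sema3c follow each other with 0, 3 and 15 protein-coding genes between neighbours, and the 4 differences ran from -2.93 to 0.66. Sema3d, next to Sema3a, read -1.76, -5.43 and -5.29 in wild type and -2.98, -7.54 and -4.99 in knockout, a spread within groups far larger than the difference of -1.01 (SE 1.39). It entered the test through the wild-type arrays, as knockout array 2 was not above background. Sema3a, the collapsin-type repellent, differed by -0.45 (SE 0.37). Sema3e, a ligand that binds a plexin without needing a neuropilin, read -0.15, -1.33 and -1.40 in wild type and 1.44, -2.57 and 0.24 in knockout, so knockout array 1 was its highest and knockout array 2 its lowest level. Of the 4 neighbours, only Sema3c was separated.

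The other semaphorins overlapped between the groups. Sema4a, a membrane-bound semaphorin also found on immune cells, read -0.54, -2.68 and -2.53 in wild type and -1.90, -0.68 and -0.22 in knockout. The level of wild-type array 1 lay among those of the knockout arrays. Its difference was 0.98 (SE 0.69) over all arrays, -1.36 on slide 1 and 2.15 on slide 2. Sema7a, which is held to the membrane by a lipid anchor, read -1.57, -1.10 and -1.13 in wild type and -3.80, 0.36 and -0.88 in knockout, a difference of -0.17 (SE 0.98) that became 1.01 without knockout array 1. Sema3b, Sema3f and Sema4b differed by 0.43, 0.15 and -0.53. Sema6a was above background on 1 array of each group and was not tested.

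Of 5 tested semaphorin receptors, 1 was separated, a share near the 17.2% of all features. Plxnb1, the plexin that binds Sema4d, read -0.54, -1.94 and -1.78 in wild type and -0.10, -0.13 and -0.15 in knockout. The knockout arrays spanned 0.05 and lay above all wild-type arrays, with wild-type array 1 only 0.40 below them. The difference was 1.30 (SE 0.39, limma adjusted p = 0.470), a 2.45-fold higher mean, with 0.44 on slide 1 and 1.72 on slide 2. On slide 2 alone it passed the threshold (limma adjusted p = 0.0473), again with the near-alike arrays as the only wild type. The second probe of Plxnb1 read -1.27, -2.24 and -2.35 in wild type and -0.57, -0.91 and -0.93 in knockout, a difference of 1.15 without overlap. Its ligand Sema4d, which is no member of the set, differed by 0.31 (SE 0.25).

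The neuropilins, co-receptors of class 3 semaphorins, differed by -0.09 (SE 0.22) for Nrp1 and 0.57 (SE 0.42) for Nrp2. Nrp2 read 3.78, 3.62 and 3.67 in wild type and 5.10, 4.22 and 3.44 in knockout, so the groups overlapped through knockout array 3. Plxna1, a plexin of class 3 semaphorin receptor complexes, differed by -0.31 (SE 0.39). Plxna2, a partner of class 6 semaphorins, read -1.61, -1.41 and -1.30 in wild type and 0.53, -3.42 and 0.60 in knockout. Knockout arrays 1 and 3 were higher and knockout array 2 lower than all wild-type arrays, and both further probes of Plxna2 had the same order of knockout array 2 below and arrays 1 and 3 above the wild type.

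Among 8 tested Eph receptors, 5 had a difference above 0 and 3 below. Ephb6, an Eph receptor whose kinase domain has no catalytic activity, read -3.30, -3.03 and -2.95 in wild type and -2.21, -2.40 and -2.45 in knockout. The groups did not overlap, and the difference was 0.74 (SE 0.22, limma adjusted p = 0.462), under 2-fold at 1.67-fold, with 1.09 on slide 1 and 0.57 on slide 2. With the near-alike arrays averaged it was 0.79, and it was above 0 under every alternative run. Leaving out or averaging arrays could not change that sign, as the groups did not overlap. Including Ephb6, 7 of 36 members were separated at any size, against 17.2% of features, with 2 higher (11.3%) and 5 lower (5.88%). The share of separated members, 19.4%, is near that background.

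Epha3, a receptor of A-type ephrins, read -5.20, -6.75 and -7.63 in wild type, where array 3 was not above background, and -4.38, -4.22 and -5.66 in knockout. The groups overlapped through wild-type array 1 and knockout array 3. The difference of 1.77 (SE 0.68, limma adjusted p = 0.486) was 0.49 after normexp correction with quantile normalisation. It entered the test through the knockout arrays only, so a higher knockout level was part of how it was kept.

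Epha4, which binds ephrins of both types, was the most variable member and is described because of its values. It read -0.68, -7.32 and -8.02 in wild type, where only array 1 was above background, and -4.44, -2.67 and -3.47 in knockout. The 3 knockout arrays lay between the wild-type arrays, and the difference changed from -3.77 on slide 1 to 4.60 on slide 2. The fit on slide 2 alone called it (limma adjusted p = 0.0410), but it entered the test through the knockout arrays only and neither wild-type array of slide 2 had it above background, so a higher knockout level there was part of how it was kept. A second probe read -3.48, -9.32 and -6.19 in wild type and -6.75, -4.82 and -5.93 in knockout, again with wild-type array 1 highest.

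Ephb2, a receptor of B-type ephrins, read 0.59, 0.33 and 0.45 in wild type and 1.08, -0.43 and -1.61 in knockout. The difference was -0.77 (SE 0.64), with the knockout arrays of this probe on both sides of the wild type. A second, dimmer probe read -3.78, -3.81 and -3.85 in wild type and -3.97, -4.74 and -6.00 in knockout. Its difference was -1.09, without overlap. Epha7 read -2.71, -3.35 and -3.32 against -5.10, -3.44 and -2.70, with only knockout array 1 apart. Epha2, the main receptor of Efna1 in many epithelia, differed by -0.29 (SE 0.27), Ephb3 by 0.34 (SE 0.44) and Ephb4, the receptor of Efnb2 on veins, by 0.33 (SE 0.26). Epha5 was above background on 1 wild-type array and was not tested.

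Of 7 tested ephrins, 6 had a difference above 0 and 1 below, and none was separated. Efna1, a lipid-anchored ligand of Epha2, read 0.10, -0.24 and -0.21 in wild type and 0.83, 1.11 and 0.10 in knockout. Wild-type array 1 and knockout array 3 met at the same rounded level. The difference was 0.80 (SE 0.32, limma adjusted p = 0.486), with 0.73 on slide 1 and 0.83 on slide 2. Efna4, a ligand of the same type, read -0.10, -0.55 and -0.55 against 0.15, 0.79 and -0.11 and differed by 0.68 (SE 0.31).

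The other ephrins had wider overlap. Efnb3, a membrane-spanning ephrin known from the spinal cord midline, read -2.68, -3.51 and -3.50 in wild type and -2.24, -3.16 and -1.36 in knockout, a difference of 0.98 (SE 0.49). Efna2 and Efnb2 differed by 0.43 (SE 0.32) and 0.34 (SE 0.33), and Efna5, the only ephrin below 0, by -0.33 (SE 0.41). Efnb1 read 2.53, 0.64 and 0.54 in wild type and 1.27, 2.36 and 0.25 in knockout, a range of 1.99 and 2.11 within the groups against a difference of 0.06 (SE 0.71). It lies on the X chromosome, the only member to do so.

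In the netrin group, Unc5b, a receptor that turns netrin binding into repulsion, read 1.56, 2.24 and 2.53 in wild type and 1.04, 1.40 and 0.74 in knockout. Wild-type array 1 and knockout array 2 were 0.16 apart. The difference was -1.05 (SE 0.33, limma adjusted p = 0.472), a 2.07-fold lower mean, with -0.52 on slide 1 and -1.31 on slide 2, and -0.91 with the near-alike arrays averaged. Unc5c, a related receptor, read -1.38, -0.16 and -0.25 against -1.65, -1.26 and -0.62 and differed by -0.58 (SE 0.43).

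The ligand Ntn1 read -3.57, -3.52 and -3.42 in wild type and -3.75, -3.57 and -3.53 in knockout, a range of 0.14 and 0.22 within the groups and a difference of -0.11 (SE 0.21) whose sign turned after normexp correction. Ntn4, a laminin-related netrin, was above background on 2 arrays of each group and was not tested. The netrin receptor Neo1, no member of the set, differed by 0.02 (SE 0.23), and Dcc had no matched probe and was not analysed here. Slit1, Robo4, Sema4d and Neo1 were picked for comparison after their values were seen.

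**Figure D3:**
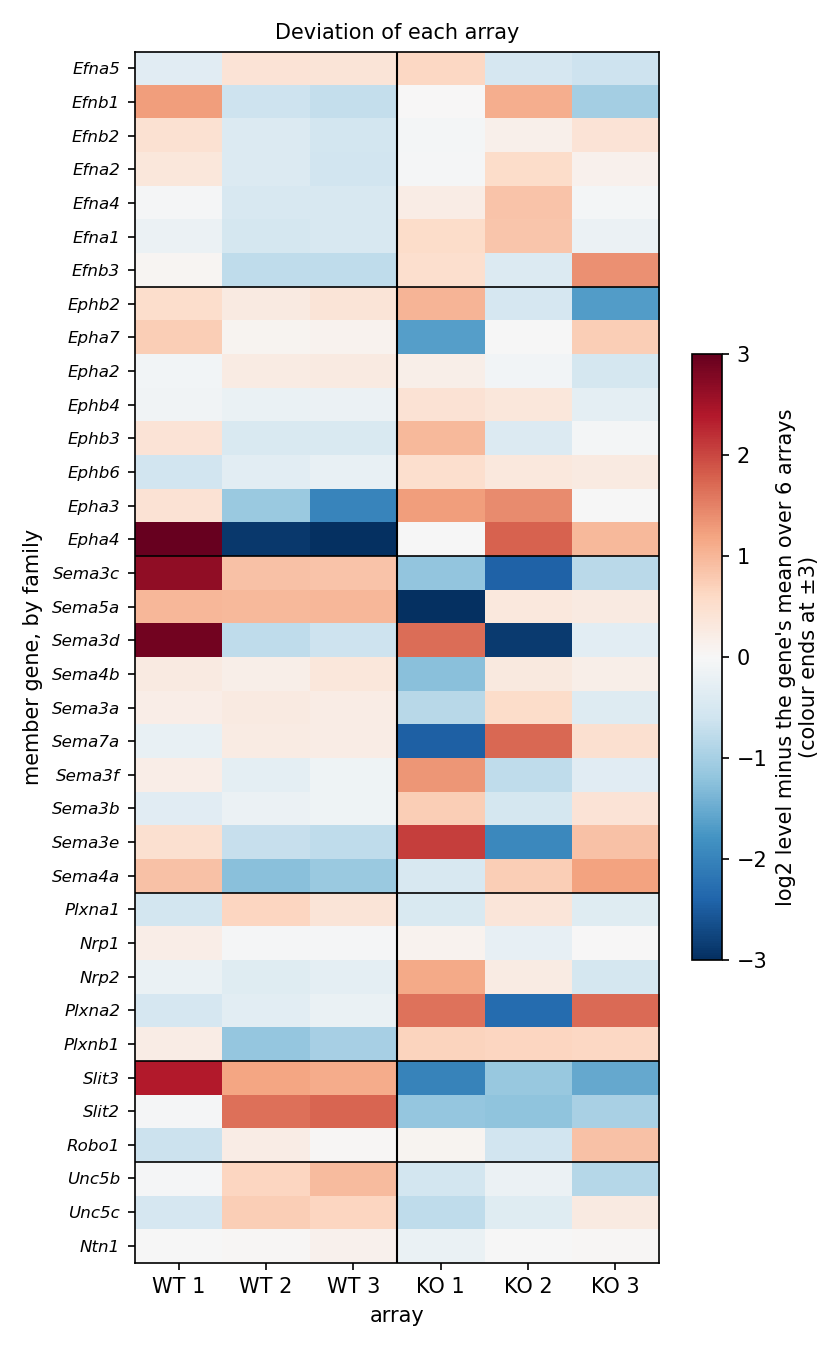
Level of the 36 tested members on each array minus the gene's own mean over the 6 arrays (log2; red above, blue below, colour ends at 3 in either direction), by family. Wild-type arrays 2 and 3 show similar colours for nearly every gene, Slit2, Slit3 and Sema3c are blue across all knockout arrays, and knockout arrays 1, 2 and 3 differ from each other for Sema3d, Sema3e, Sema7a and Plxna2.

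Many members varied widely within groups. A spread of at least 2-fold within wild type was seen for 13 of 36 members, and in all 13 wild-type array 1 was the one that lay alone, as it did for 93.8% of such features in the whole table. Within knockout, 23 members spanned at least 2-fold, with array 1 alone for 11, array 2 for 8 and array 3 for 4; over all features the shares were 43.8%, 26.1% and 30.1%. The median range within knockout was 1.40 for the members and 0.82 for all features. The median absolute difference between groups was 0.60 for the members and 0.35 for all features, and the median signed difference 0.10 and 0.07, so members lay on both sides of 0, 19 above and 17 below. Ligands had a median of -0.03 (20 tested) and receptors of 0.30 (16 tested).

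**Figure D4:**
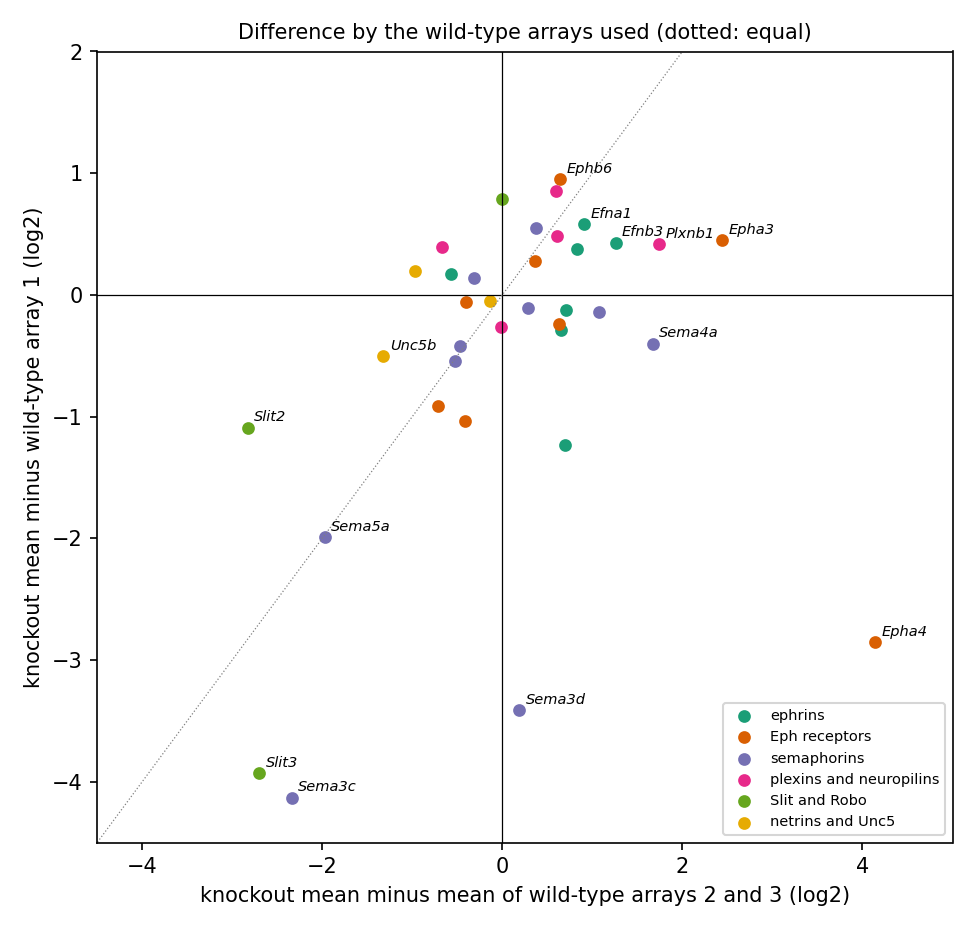
Difference of the knockout mean from wild-type array 1 (vertical axis, log2) against its difference from the mean of wild-type arrays 2 and 3 (horizontal axis, log2) for the 36 tested members, coloured by family; points share the knockout arrays, and the dotted line marks equal values. Slit3, Sema3c, Slit2, Sema5a and Unc5b lie below 0 on both axes and Plxnb1 and Ephb6 above 0 on both. That side is fixed in advance where groups do not overlap, as for these members. Epha4 is at 4.14 against wild-type arrays 2 and 3 and at -2.85 against wild-type array 1.

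Of 17 member genes with several probes, 10 had further probes above background on all arrays beside such a brightest probe. Of these 11 further probes, 10 gave a difference of the same sign as the brightest. The exception was Nrp1, at -0.09 for the brightest probe and 0.12 for the other. The separated members with 2 probes, Slit2, Plxnb1 and Sema5a, were separated in the same direction by both. The second probe of Sema5a was above background on 5 arrays only. The other separated members, Slit3, Sema3c, Unc5b and Ephb6, had 1 probe each. Ephb2 was separated downward by its further probe and overlapped by its brightest.

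The rest of these families and their signalling partners were taken from 2 further lists. Of 35 remaining family genes, 31 had a probe and 20 were tested; 0 passed the limma threshold, and 3 had an unadjusted p under 0.05 (15.0%, against 10.3% of all features), 1 higher and 2 lower. Sema4f, a membrane-bound semaphorin, was separated upward with a difference of 1.20 (SE 0.28, limma adjusted p = 0.348). Flrt2, a surface protein that binds Unc5 receptors, was separated downward at -1.28 (SE 0.43, limma adjusted p = 0.475), reading -4.01, -3.39 and -3.64 in wild type and -5.88, -4.34 and -4.67 in knockout. Sema6b differed by -1.05 (SE 0.44) with overlap.

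Of 46 signalling partners, 44 had a probe and 41 were tested; 0 passed the limma threshold, and 5 had an unadjusted p under 0.05 (12.2%, near the 10.3% of all features), 2 higher and 3 lower. Farp2, an exchange factor that couples plexins to Rac1, differed by 0.94 (SE 0.28, limma adjusted p = 0.469) without overlap. Mical2, an oxidase that takes actin filaments apart, differed by -1.40 (SE 0.54, limma adjusted p = 0.486) without overlap, and Nrcam, an adhesion molecule of semaphorin receptor complexes, by -2.67 with overlap. The share of partners separated and at least 2-fold apart was 2.44%, against 4.30% of all features, and that of the remaining family genes 10.0%.

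Promoters were searched for TTAGGG, the vertebrate telomere repeat that shelterin binds, on both strands of the 300 bases from 250 before to 50 after each RefSeq start in GRCm38.p6. Windows were given for 38 of the 44 members. At least 1 copy stood in 12.2% of 49 member windows and in 10.6% of 32851 windows of all genes. None of the windows of Slit2, Slit3, Sema3c, Sema5a, Unc5b, Plxnb1 or Ephb6 held one, and 2 adjacent copies stood in 0 member windows and in 4 of all. Among tested members, Sema4a and Epha7 held a copy, shown with the motif in capitals, 5′ to 3′ on the strand of the gene.
Sema4a, chr3:88461151-88461180, minus strand: cggacgcctgggTTAGGGgtctgtactgct
Epha7, chr4:28813111-28813140, plus strand: ccgcctcctcccCCCTAAttgatattattg
The Epha7 copy is on the other strand and so reads CCCTAA. A match describes the letters and not a bound site, and both genes overlapped between the groups.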

How the data were processed

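Per the file headers, the intensity values that the authors deposited came from Feature Extraction 10.5.1.1, Agilent's scanner software, with a processed signal already corrected for background and detrended, spot and local background medians, and flags. The deposited value table holds log2 values; the submitters' processing notes name limma, and the steps are not given in the sources used here. Scanner signals after normexp (offset 50) and quantile normalisation correlated with its columns at 0.99999, and its knockout columns 1, 2 and 3 held scanner files 2, 3 and 1, which leaves the groups as labelled.

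Of 45018 spots, 1639 controls and 74 to 120 outlier spots per array were left out and repeat spots averaged, giving 41174 probes. The values were log2 processed signal minus each array's 75th percentile; 23374 probes were named through RefSeq accessions and 17800 kept the file's name. One probe per gene, that of highest mean, was kept where every array of 1 group had it well above background. No spot was saturated. The 2 groups were compared with lmFit and eBayes of limma 3.58.1 under R 4.3.3 (2-sided, Benjamini-Hochberg over all 19647 features). Members and lists were chosen with earlier results of these data known. Values on every array were given for members with an unadjusted p under 0.05 or separated at least 2-fold, and for others picked after their values were seen; the lists of remaining family genes and of signalling partners give the 3 genes of smallest p, and marker genes were picked after their values were seen. Simulated data had 10 runs of 3 against 3 arrays and 19647 features, 200 of them changed. Of features changed by a log2 of 1, 2 and 4, 2.24%, 40.6% and 85.5% were recovered. The simulated arrays were independent, unlike the near-alike wild-type arrays 2 and 3, so these rates may overstate recovery in these data. The files name no coordinates used here; the promoter windows come from RefSeq.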

Additional observations from a re-analysis of the deposited data

How the results depend on the processing

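Alternatives were other scalings, the deposited value table, other filters on dim signals, averaged probes of a gene, a robust variance with a trend, blocks, slide 2 alone, near-alike arrays averaged and each array left out. Limma called 2 of all features, 0 over probes above background on all arrays (1780 at an unadjusted p under 0.05), 0 with the slide as a block (3482), 0 with wild-type arrays 2 and 3 averaged (690), 4 with the mean of a gene's probes and 301 on slide 2 alone, and from 0 to 63 without single arrays, 63 being without wild-type array 1. Members called were 4 on slide 2 alone (11.1%, against 1.53% of features), among them Epha4, which was kept through its knockout arrays, and 0 to 1 without single arrays, and 0 elsewhere. Members separated at least 2-fold numbered 10 on slide 2 alone (27.8%, against 13.8% of features) and 5 to 10 without single arrays; members at an unadjusted p under 0.05 numbered 14 on slide 2 alone (38.9% against 22.1%), 4 with the averaged arrays (11.1% against 3.51%) and 4 to 14 without single arrays. Without wild-type array 1, limma called 2.78% of members against 0.321% of features. The shares of all features there were 13.7% separated at least 2-fold and 18% at an unadjusted p under 0.05. The higher counts on slide 2 alone and without wild-type array 1 rest on the near-alike arrays as the only wild type.

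With the replicate number as a block, 0 features passed limma's threshold (2351 had an unadjusted p under 0.05), and so did 0 members, with 8 members at an unadjusted p under 0.05 as before. Deviations of same-numbered arrays correlated at 0.01, 0.05 and -0.08, so the numbers of the scanner files gave no sign of pairing. The deposited value table numbers the knockout arrays differently, and pairing by its numbers was not tested.

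Of 36 tested members, 25 kept 1 sign under every alternative, among them all 9 of the plot of levels by array. For the separated members in that plot, leaving out or averaging arrays, blocks or slide 2 alone could not change the sign. Slide 1 alone was not among the alternatives. There the sign was opposite for Epha4 (-3.77), Sema4a (-1.36), Efna5 (0.96) and Efnb2 (-0.51). So it was for Ephb2 (0.49), Efna2 (-0.38), Epha2 (0.26) and Plxna1 (0.09), and it was unchanged for the others of the 25. Efnb1 turned to -0.01 after normexp and in the value table and to -0.27 with the averaged arrays. Ntn1 turned to 0.02 and 0.03 after normexp and in the value table, and Nrp1 to 0.02 with median scaling and 0.01 with the mean of its probes. On slide 2 alone Epha7 was 0.27, Sema3f -0.35, Sema7a 0.86 and Plxna2 -0.05. Without single arrays Efnb1 ran from -0.48 to 0.70, Epha7 from -1.14 to 0.06, Ephb3 from -0.07 to 0.63, Sema3d from -2.11 to 0.19, Sema3e from -0.20 to 1.80, Sema3f from -0.48 to 0.57, Sema7a from -1.07 to 1.01, Nrp1 from -0.17 to 0.01 and Robo1 from -0.11 to 0.61. The cause of these changes was not tested. Median scaling moved the median of all features from 0.07 to 0.17. Signal over background limits Epha3, Epha4 and Sema3d.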
